A study of Mus musculus with 7 samples.

Results

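Open chromatin was compared between pre-proB cells that lacked Erg and pre-proB cells that lacked Erg but carried an immunoglobulin heavy chain gene that was already rearranged. Erg is a transcription factor of the ETS family. Both libraries came from mice in which Cre, driven by Rag1 from the common lymphoid progenitor onward, had deleted the floxed Erg alleles (Rag1CreT/+;Ergdelta/delta). The Rescue library also carried IgHVH10tar, a knock-in of a productive heavy chain that is transcribed under the control of the endogenous Igh locus. The members were the peaks of each list that shared no base with a peak of the other list. They numbered 17109 of the 647973 peaks in all 7 libraries. Of these, 10363 were Rescue pre-proB peaks with no Erg KO pre-proB peak (Rescue-only peaks), and 6746 were Erg KO peaks with no Rescue peak (Erg KO-only peaks). The other 5 libraries, which were looked up but not compared, were WT (Ergfl/fl, with no Cre in the label) pre-proB, proB and preB cells and Rescue proB and preB cells. The cells were sorted from bone marrow, and the pre-proB gate took B220+ CD43+ CD24- cells that lacked IgM, IgD, NK1.1 and CD11c.

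Each group was 1 library, so no difference below has a test or a spread between animals. Intervals of shares are Wilson 95% intervals, and they hold for counting error alone. Groups followed the sample titles, and the source names of all 3 Rescue libraries gave another stage. Promoters of a list of 10 B-cell marker genes held a peak for 5 genes in Erg KO pre-proB, 6 in the library titled Rescue pre-proB, 9 in WT pre-proB and 10 in each of the other 4. The library with the pre-proB source name is the one titled Rescue preB. With that library in place of the titled one, 22716 Rescue peaks and 40887 Erg KO peaks were unshared.

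A heavy chain gene is assembled from V, D and J segments by the RAG recombinase. D joins J first, and V is then joined to DJ. A productive heavy chain pairs with the surrogate light chain (Igll1, Vpreb1 and Vpreb2) and with the signalling chains Cd79a and Cd79b to form the pre-B receptor, which lets proB cells pass to the preB stage. In ATAC-seq a transposase cuts DNA where chromatin is open, and a peak marks where the sequenced fragments exceed the background. The deposited fold of a peak is its fragment pileup over the background pileup, each with 1 added, and it gave back the number of fragments over the summit in whole steps. The background pileup was 4.46 fragments in Erg KO and 4.60 in Rescue, and the weakest called peak had 12 fragments in each. The absence of a peak therefore means fewer fragments than the caller asked for, not closed chromatin.

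The sequences below show the segments at Igh where the peaks of the libraries differed, and the strongest Rescue-only peak. They are the mm10 (GRCm38) reference, not the sequence of these cells or of the knock-in, and Igh is read on its own minus strand. The 4 J segments lie at chr12:113428514-113429833. Capitals mark TGGGG, which opens the tryptophan and glycine motif shared by J segments. These letters, on either strand, are also in 63.0% of 32851 RefSeq promoter windows.

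Ighj1: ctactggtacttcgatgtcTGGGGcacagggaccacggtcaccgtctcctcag
Ighj2: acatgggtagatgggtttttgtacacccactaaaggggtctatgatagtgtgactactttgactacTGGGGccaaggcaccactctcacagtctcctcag
Ighj3: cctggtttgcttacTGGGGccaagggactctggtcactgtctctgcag
Ighj4: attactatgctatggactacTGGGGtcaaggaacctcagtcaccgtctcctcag

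Ighd4-1, the D segment nearest to the J segments, is shown at chr12:113430500-113430566 with 28 bases on each side. Capitals mark CACNGTG, the heptamer at which RAG cuts, which flanks the segment on both sides. These letters are in 8.95% of the same promoter windows.

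Ighd4-1: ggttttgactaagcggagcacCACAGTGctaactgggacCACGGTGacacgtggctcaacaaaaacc

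The start of the V segment Ighv3-8 is shown at chr12:114322676-114322875, 100 bases on either side of the summit of a Rescue-only peak. Capitals mark annotated exon.

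Ighv3-8: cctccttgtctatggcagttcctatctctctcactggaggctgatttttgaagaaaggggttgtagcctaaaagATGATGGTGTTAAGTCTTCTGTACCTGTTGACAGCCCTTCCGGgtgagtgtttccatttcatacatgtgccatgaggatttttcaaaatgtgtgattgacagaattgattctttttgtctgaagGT

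The same window around the strongest Rescue-only peak is at chr12:55155556-55155755 in intron 1 of Srp54b, plus strand. It held none of the 14 motifs searched below.

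Srp54b: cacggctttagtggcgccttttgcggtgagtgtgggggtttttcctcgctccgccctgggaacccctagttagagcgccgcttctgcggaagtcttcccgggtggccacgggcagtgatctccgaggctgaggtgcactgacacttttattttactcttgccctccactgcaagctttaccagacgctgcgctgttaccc

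The J segments themselves separated the pair. In Erg KO a single peak at chr12:113428355-113431987 covered all 1320 bp from Ighj4 to Ighj1 and ran on over Ighd4-1, with 428 fragments at its summit and a fold of 78.6. That summit, at position 113430582, lay beside Ighd4-1 and not over a J segment, so the height over the J segments themselves is not in the list. In Rescue pre-proB 483 of the 1320 bp (36.6%) were covered, by weak peaks of 15 and 16 fragments. Ighj1 and Ighj4 lay outside any Rescue peak, Ighj3 lay inside one and 65 of the 100 bp of Ighj2 did. A strong Rescue peak began just beyond Ighj1, at chr12:113429894-113431060, and covered Ighd4-1 with 308 fragments and a fold of 55.2. The J segments counted as shared by the 1 bp rule, so none of this is among the unshared peaks.

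The broken pattern was found in all 3 Rescue libraries, so it did not depend on whether title or source name gave the stage. Rescue proB covered 403 bp of the J span with a peak of 15 fragments, and Rescue preB covered 628 bp with a peak of 16. WT pre-proB, like Erg KO, had 1 peak over the whole span, with 384 fragments at a summit beside Ighd4-1. The WT libraries of later stages differed from both: WT proB had no peak over any J segment, and WT preB covered Ighj4 and Ighj3 at the edge of a peak of 339 fragments. Over Ighd4-1, Rescue proB and Rescue preB had peaks of 70 and 87 fragments, while WT proB and WT preB had none. With only peaks at a −log10 q of 10 or more kept, 0 bp of the J span were covered in Rescue pre-proB and 1320 bp in Erg KO. This filter acts on whole peaks, and the Erg KO peak passed it through its summit beside Ighd4-1, outside the J span. It therefore does not compare the height over the J segments. The reads were aligned to the reference, so reads from a rearranged or knocked-in allele and loss of openness on the germline allele cannot be told apart in these lists.

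**Figure D1:**
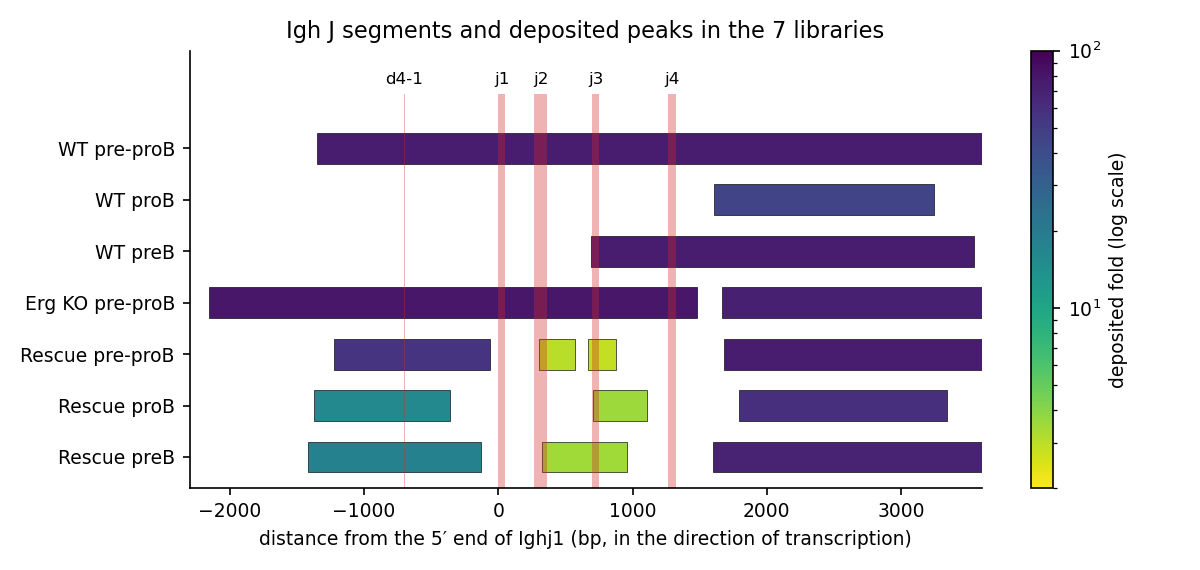
Deposited peaks over the Igh J segments in the 7 libraries. The x axis is the distance in bp from the 5′ end of Ighj1 in the direction of transcription, bars are peaks coloured by deposited fold on a log scale and cut at the axis ends, and red bands are the segments. Erg KO and WT pre-proB have an unbroken peak across j1 to j4, coloured by the fold at its summit beside d4-1. The 3 Rescue libraries have a peak over d4-1 (70 to 308 fragments) and only weak peaks (15 or 16 fragments, yellow to green) between j1 and j4.

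Just past the J segments the libraries met again. The intron between Ighj4 and Ighm holds the intronic heavy chain enhancer, and peaks covered 96.7% of it in Erg KO and 93.8% in Rescue pre-proB. The peak that runs from there into Ighm had 384 fragments at its summit in Erg KO and 415 in Rescue. In the 40 kb past Igha, where the regulatory region at the 3′ end of the locus lies, Erg KO had 7 peaks, none of them unshared, and Rescue had 8, of which 1 was unshared. Over the constant genes 3 Erg KO peaks were unshared, all of them nearest to Ighd, which encodes the heavy chain of IgD, and they had 16 to 22 fragments. The one Rescue-only peak there lay near Ighe and had 19.

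The V segments were alike in number. Over the whole of Igh (chr12:113254830-116010093) Rescue had 169 peaks and Erg KO 170, of which 16 and 15 were unshared. Across all chromosomes 9.81% of Rescue peaks and 6.57% of Erg KO peaks were unshared. A peak within 1000 bp of the start was present at 73 of 185 Ighv segments in each library, 68 of them the same segments. Those with a peak in Rescue only were Ighv2-3, Ighv5-9-1, Ighv3-8, Ighv1-23 and Ighv1-66. Those with a peak in Erg KO only were Ighv9-1, Ighv9-2, Ighv6-4, Ighv1-42 and the pseudogene Ighv8-15. In WT proB 8 of these 10 segments had a peak. Ighv8-15 had a peak in no other library, and Ighv3-8 had one in the Rescue libraries alone.

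Ighv3-8 was the one Ighv segment with a peak at its start in all 3 Rescue libraries and in no other. Its peak at chr12:114322465-114323065 had 26 fragments in Rescue pre-proB. The later Rescue libraries had more, 47 in proB and 69 in preB cells. None of the 3 WT libraries and not Erg KO had a peak within 1000 bp of its start, while WT proB had a peak at 99 of the 185 Ighv segments. It was picked out of the unshared Igh peaks with its values known. Which V segment the knocked-in heavy chain was made from is not given in the sources used here. Reads of the knock-in and of germline Ighv3-8 were not separated here.

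The light chain and T-cell receptor loci were close in number too. Igk, the kappa light chain locus, had 80 peaks in Rescue pre-proB and 74 in Erg KO, with 12 and 4 unshared. Across all chromosomes the unshared shares were 9.81% and 6.57%. The later Rescue libraries had 224 (proB) and 255 (preB). Of 160 Igkv segments, 26 had a peak at the start in Rescue and 24 in Erg KO, and the 2 that differed were Igkv2-109 and Igkv8-24. Of the 5 Igkj segments, 5 and 4 did. Tcra/Tcrd had 90 peaks in Rescue and 92 in Erg KO, with 7 and 5 unshared. Tcrb had 55 and 52, with 5 and 3 unshared, and Tcrg had 19 and 20, with 1 and 2 unshared. The T-cell receptor loci rearrange in developing T cells.

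Nearly all of the unshared peaks were weak, at Igh as elsewhere. The Rescue-only peaks were 9.81% of the Rescue list (9.63 to 9.99%) and the Erg KO-only peaks 6.57% of the Erg KO list (6.42 to 6.73%). The median summit had 19 fragments among Rescue-only peaks and 55 among shared Rescue peaks. It had 18 fragments among Erg KO-only peaks and 50 among shared Erg KO peaks. Among peaks with a −log10 q under 5, 51.7% of Rescue peaks and 38.9% of Erg KO peaks were unshared. From 10 to 20 it was 4.24% (743 of 17509) and 1.42% (244 of 17180). From 20 to 50 there were 10 unshared peaks in each list, of 20118 and 19207. At 50 and over there was 1 of 41557 in Rescue and 0 of 39255 in Erg KO, which allows a share of up to 0.0098%. The Rescue list was the longer one. With both lists at 102605 peaks, 8.41% of Rescue and 7.70% of Erg KO peaks were unshared.

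**Figure D2:**
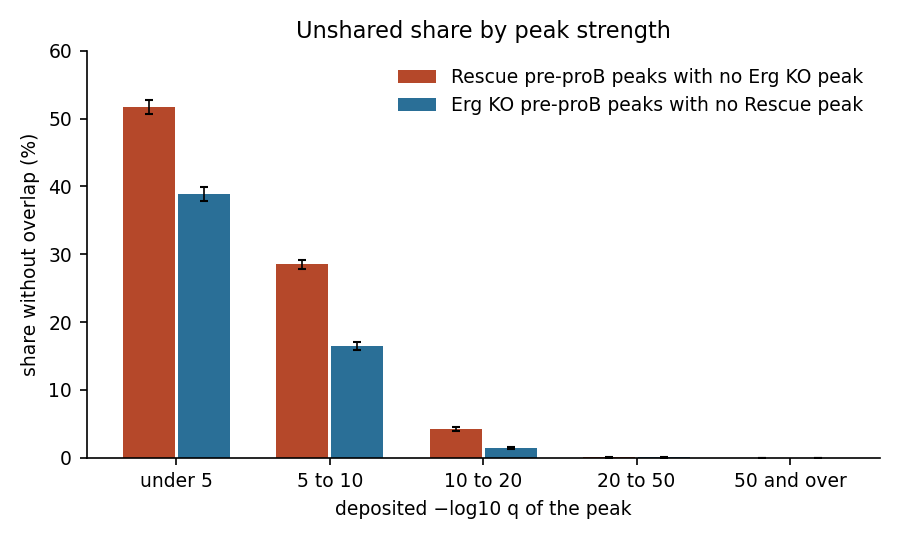
Share of peaks with no overlapping peak in the other list, in %, by the deposited −log10 q of the peak. Bars are Rescue pre-proB (red) and Erg KO pre-proB (blue), 1 library each, and error bars are Wilson 95% intervals. The share falls from 51.7% and 38.9% at the left to near 0 above a −log10 q of 20, with Rescue above Erg KO in the first 3 classes.

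The pair was set beside WT pre-proB for scale. At equal list lengths of 95662 peaks, 9.91% of Erg KO peaks had no WT pre-proB peak and 9.18% of WT pre-proB peaks had no Erg KO peak. For Rescue pre-proB and WT pre-proB the shares were 10.3% and 9.01%. Between WT pre-proB and WT proB, at 91668 peaks each, they were 33.1% and 33.4%. Over whole lists, 13.6% of Erg KO peaks and 15.6% of Rescue pre-proB peaks had no WT pre-proB peak. Of WT pre-proB peaks, 6.88% had no Erg KO peak and 5.88% no Rescue peak. The shares moved with list length, and 1 library of each cannot show whether animals of 1 genotype differ as much.

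Unshared peaks lay at promoters less often than shared peaks, which were stronger and were not matched for strength here. Of Rescue-only peaks 9.26% (960) overlapped the 1000 bp on either side of a transcription start site, against 20.5% of shared Rescue peaks. Of Erg KO-only peaks it was 10.4% (702), against 20.5% of shared ones. Introns held 51.4% of Rescue-only and 49.8% of Erg KO-only peaks, against 44.0% and 44.1% of shared peaks. The median distance from summit to the nearest start site was 11487 bp for Rescue-only peaks and 10769 bp for Erg KO-only peaks. For shared peaks it was 8887 bp in Rescue and 8880 bp in Erg KO. By autosome the share ran from 8.93 to 10.8% for Rescue and from 6.08 to 8.10% for Erg KO. Chromosome 12, which carries Igh, had 9.51% and 6.74%, within these ranges. Chromosome Y had 22.5% (9 of 40 peaks, 12.3 to 37.5%) for Rescue and 7.32% (3 of 41, 2.52 to 19.4%) for Erg KO.

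The unshared peaks of both directions looked alike in the other libraries. Of the Rescue-only peaks 25.3% overlapped a peak of WT pre-proB and 28.1% one of WT proB. Of the Erg KO-only peaks it was 25.5% and 29.1%. The later Rescue libraries, which carry the same knock-in, held 2640 (Rescue proB, 25.5%) and 2591 (Rescue preB) of the 10363 Rescue-only peaks, and 27.2% and 26.3% of the Erg KO-only peaks. Peaks found only with the knock-in were therefore no more frequent in the later Rescue cells than peaks found only without it. Shared Rescue peaks of the same strength, with a −log10 q in the middle quartiles of the Rescue-only peaks, were found in WT pre-proB in 56.4% of cases and in Rescue proB in 38.9%. Among the 754 Rescue-only and 254 Erg KO-only peaks with a −log10 q of 10 or more, WT pre-proB held 48.7% and 53.9%, and Rescue proB 26.9% and 44.1%.

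**Figure D3:**
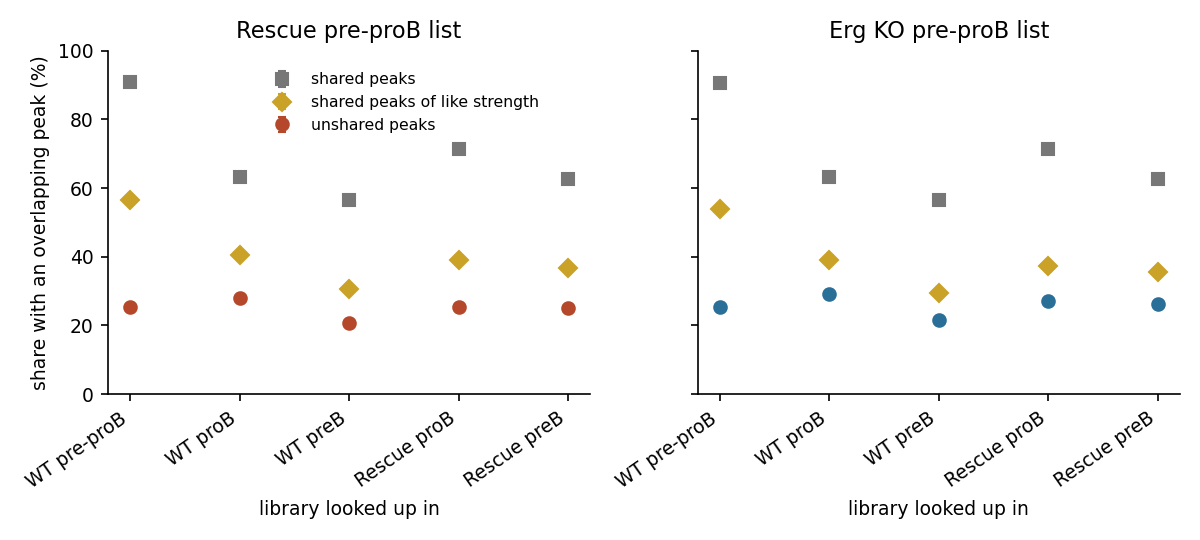
Share of peaks, in %, that overlap a peak of each of the other 5 libraries, for the Rescue pre-proB list (left) and the Erg KO pre-proB list (right). Squares are shared peaks, diamonds are shared peaks with a −log10 q in the middle quartiles of the unshared ones, circles are unshared peaks, and error bars are Wilson 95% intervals. Unshared peaks sit between 20.6% and 29.1% in every library of both panels, below both kinds of shared peak.

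By pattern, 5175 of the Rescue-only peaks (49.9%) and 3234 of the Erg KO-only peaks (47.9%) were in none of the other 5 libraries. A further 669 Rescue-only peaks (6.46%) were in all of them, so that Erg KO alone lacked them, and 441 Erg KO-only peaks (6.54%) were missing from Rescue pre-proB alone. The pattern that matches the knock-in, present in all 3 Rescue libraries and in no other, held 123 peaks (1.19%). Of the Erg KO-only peaks, 99 (1.47%) were in Rescue proB and Rescue preB and in none of the WT libraries, so presence in both later Rescue libraries and no WT library was no more frequent among Rescue-only peaks. Present in Rescue pre-proB and the 3 WT libraries but not in Erg KO or the other Rescue libraries were 57. The mirror pattern, Erg KO and the 3 WT libraries with no Rescue library, held 28 (0.42%). Of the 123 peaks 8 lay on chromosome 12, which held 439 of all 10363 Rescue-only peaks, and chromosome 1 held the most, 14.

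The strongest of the knock-in pattern was the peak at chr12:55155390-55155818 in Srp54b, which encodes a subunit of the signal recognition particle. Its 74 fragments in Rescue pre-proB went with 38 in the proB and 51 in the preB library of that genotype, and the WT and Erg KO libraries had no peak. Its −log10 q of 59.5 was the highest of all 17109 unshared peaks. Srp54b has near-identical neighbours, Srp54a and Srp54c, and reads of these copies may not be told apart. The next 4 were far weaker. They lay 18798 bp from 9130401M01Rik, 2186 bp from Igf2 (a growth factor gene), 109628 bp from A930036I15Rik and 3966 bp from Gm12093, with 26 to 28 fragments in Rescue pre-proB. For the mirror pattern the strongest was at the start of Gm14443 at chr2:175175756-175176231, with 53 fragments in Erg KO and 16 to 29 in the WT libraries. Then came a peak 16916 bp from Dusp2, a phosphatase that turns off MAP kinases, with 30 fragments in Erg KO. The other 3 lay in intron 31 of Cacna1a (nearest Gm16183), 30764 bp from Zscan20 and 15533 bp from Gm25303, with 22 to 26 fragments. Gm14443 lies in a cluster of zinc finger genes that resemble each other, so its reads may also be shared among copies.

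**Figure D4:**
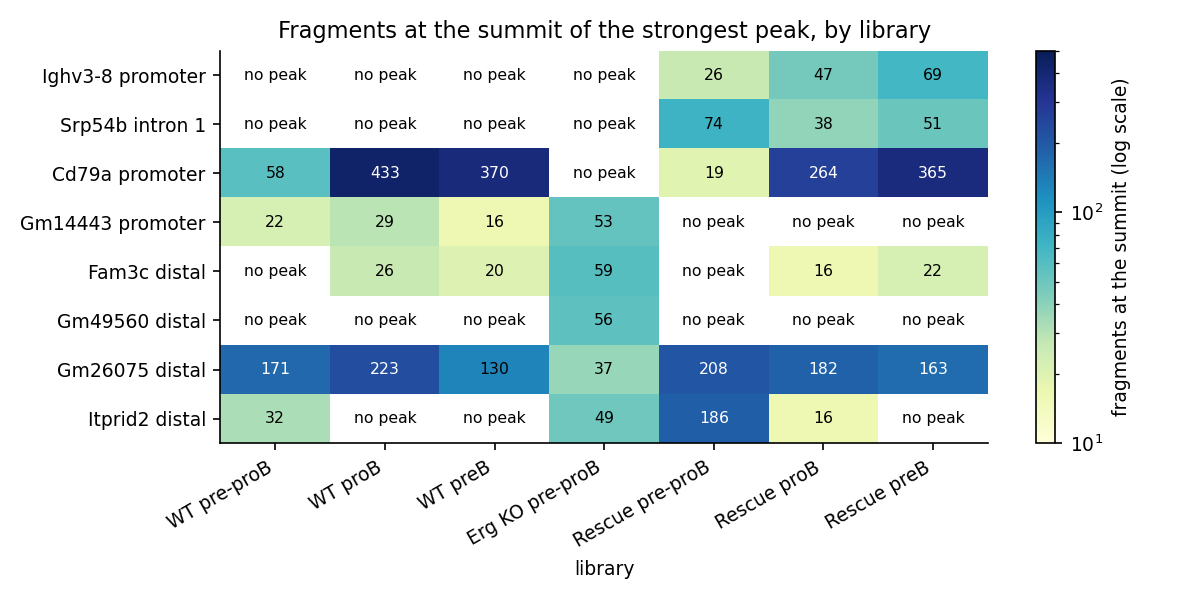
Fragments at the summit of the strongest peak at 8 places, by library, 1 library per column, with colour on a log scale and no peak in white. Ighv3-8 and Srp54b have peaks in the 3 Rescue libraries only, Gm14443 has peaks in WT and Erg KO only, and Gm49560 has a peak in Erg KO alone. Cd79a rises from no peak in Erg KO and 19 fragments in Rescue pre-proB to 264 and 365 in the later Rescue libraries.

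The other leading Rescue-only peaks had no such pattern. Peaks of 43 fragments lay 26899 bp from Klrg2 and 2721 bp from Gm3739, and both were also in WT pre-proB. In WT pre-proB the peak near Klrg2 had 29 fragments, and no proB or preB library had it. A peak of 41 fragments in intron 21 of Shank2 (nearest Gm14372) was in all libraries but Erg KO. It had 95 fragments in WT proB. Those near Gm17740 and in intron 6 of Ociad2 had 40 fragments, and they were also in WT pre-proB alone, as were those in an intron of Ppp1r13b (nearest Gm19195) and near Gorasp2, with 38. The peak 51410 bp from Cngb1 (39 fragments) was also in WT proB. Those in intron 17 of Sestd1 (nearest Ccdc141, 38), intron 11 of Lonrf2 (37) and intron 1 of Arhgap26 (nearest Gm15335, 39) were in no other library. Of the 12 strongest Rescue-only peaks, 7 were in WT pre-proB.

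Among Erg KO-only peaks the strongest was intergenic, 126208 bp from Fam3c, a secreted protein gene, at chr6:22482236-22482648. It had 59 fragments in Erg KO and no peak in the other pre-proB libraries, while the 4 libraries of later stages had 16 to 26. Next came chr16:81962538-81963024, near Gm49560, with 56 fragments in Erg KO and no peak in any other library. A peak in intron 12 of Ica1 at chr6:8645763-8646402 had 53 fragments and was also in Erg KO alone. Exon 1 of 5330426L24Rik had 50 fragments in Erg KO and 88, 132 and 152 in WT pre-proB, proB and preB. It had 19 in Rescue proB and no peak in Rescue pre-proB or Rescue preB. The peaks near Gm10273 (43 fragments), Tcte3 (41) and in exon 13 of Smurf1 (nearest Mir7039, 38) were in all libraries but Rescue pre-proB. In intron 1 of Efna5, an ephrin gene, a peak of 40 fragments was also in both proB libraries. The peak near Gm28724 (39) was in all 4 libraries of later stages, that in exon 7 of Glp2r (nearest Rcvrn, 34) in 3 of them, and that in intron 7 of Ebf2 (nearest Gm23178, 34) in no other library. Of the 12 strongest Erg KO-only peaks, 5 were in WT pre-proB.

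Counted by nearest gene, 25.6% of the 31232 genes nearest to a Rescue peak had at least 1 Rescue-only peak and 5.43% (1697) had 2 or more. For Erg KO it was 18% of 31036 genes with at least 1, and 2.65% (824) with 2 or more. Cd47, the signal that keeps cells from being eaten, led the Rescue-only genes with 13 of its 42 Rescue peaks unshared, and 8 of its 35 Erg KO peaks were unshared too. All 21 had 13 to 26 fragments. The gene of the deleted factor, Erg, had 11 of 36 Rescue peaks and 4 of 31 Erg KO peaks unshared, with 15 to 25 fragments. Of the 11, 7 were in at least 1 WT library. The deletion itself was not checked from these peaks. Within the Erg gene the strongest summit had 458 fragments in Erg KO and 474 in Rescue pre-proB.

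Bach2, a repressor that acts at the pre-B receptor checkpoint, had 7 of its 27 Rescue peaks unshared and 0 of its 20 Erg KO peaks. They lay in introns 2 and 3 and had 15 to 25 fragments, and 3 of them were in a Rescue library of later stage. Of these, the peak at chr4:32342277-32342526 was also in WT pre-proB, proB and preB. The peak at chr4:32356257-32356555 was also in WT proB and preB. Only the peak at chr4:32385686-32385959 was in no WT library. Over the whole gene body Bach2 had 50 peaks in Rescue pre-proB, 41 in Erg KO, 41 in WT pre-proB and 36 to 44 in the other libraries. Its promoter peak was shared by all 7 libraries. The other leading genes were Gm37642 (13 of 40 Rescue peaks unshared), Gm26603 (8 of 39), Inpp5a (7 of 29), Rere (7 of 19) and Gm15599 (7 of 52).

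For Erg KO the leading genes were neighbours on chromosome 17. n-R5s27, an annotated ribosomal RNA sequence, had 20 of 51 Erg KO peaks unshared against 1 of 34 Rescue peaks. Runx2os2, antisense to Runx2, had 13 of 31 against 0 of 18. Both lie in the 500 kb at chr17:44500001-45000000, around Runx2, a Runx factor that plasmacytoid dendritic cells also express. This window held 103 peaks in Erg KO, 76 in Rescue pre-proB, 83 in WT pre-proB, and between 12 and 24 in each library of a later stage. Of the Erg KO peaks 36 were unshared. The gate left out CD11c+ cells, which can include plasmacytoid dendritic cells. Promoters of 10 marker genes of these cells held a peak for 10 in both libraries, and for 9 or 10 in each of the other 5, where the window had far fewer peaks at later stages, and the part of such cells in this window was not tested. Gm48527, Gm18878 and Gm18262 on chromosome 13 shared a window of 103 Erg KO and 86 Rescue peaks, with unshared peaks in both directions (39 and 23). Zfp992 had 9 of 21 Erg KO peaks unshared, and Pde4d 7 of 71 against 7 of 68.

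The genes that Erg is reported to act through were read from a list of 18, taken from the study and so not independent of these cells. A promoter peak was present for 13 of the 18 in Erg KO and for 14 in Rescue pre-proB, and for all 18 in each of the other 5 libraries. Across 21938 coding genes 63.6% had a promoter peak in both libraries, 0.921% (202) in Rescue alone and 0.652% (143) in Erg KO alone. Pax5, Vpreb1, Vpreb2 and Pou2af1 had no promoter peak in either library. Over the whole Pax5 gene body, though, Erg KO had 14 peaks, Rescue pre-proB 15 and WT pre-proB 15. The study reports that the Ebf1 and Pax5 loci stayed accessible in Erg KO pre-proB cells. Pax5 is the factor that commits cells to the B lineage and Pou2af1 is a B-cell coactivator. In WT pre-proB their promoters had 18 fragments (Pax5), 43 (Vpreb1) and 37 (Pou2af1), and in Rescue proB 133, 112 and 341. The 5 promoters without a peak in Erg KO were thus, with 1 exception, without a peak in Rescue pre-proB too.

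The exception was Cd79a, a signalling chain of the pre-B receptor. Its promoter had no peak in Erg KO and a weak one in Rescue pre-proB, at chr7:24897175-24897550, with 19 fragments and a fold of 3.57. The peak had 58 fragments in WT pre-proB, and 264 and 365 in the proB and preB libraries of Rescue. The Rescue pre-proB value was that of the median Rescue-only peak. The promoters of Ebf1, Igll1, Rag1, Rag2, Cd79b and Bach2 had peaks in both libraries. The −log10 q of the Ebf1 promoter was 139 in Erg KO and 136 in Rescue, that of Igll1 112 and 120, and that of Rag1 208 and 247. No shared pair nearest to a gene of this list had a fold that differed over 2 times, among 59 pairs. Of the peaks nearest to these 18 genes, 11 of 80 Rescue peaks (13.8%) and 2 of 67 Erg KO peaks (2.99%) were unshared. Across all peaks it was 9.81% and 6.57%. Bach2 had 7 of the 11.

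The other lists differed little in which promoters had a peak. For 19 genes of the pre-B receptor and its signalling, 15 promoters had a peak in Erg KO and 16 in Rescue, with Cd79a again the difference. Among 18 transcription factors of the B lineage it was 16 and 16, and among 14 genes of the IL-7 and FLT3 pathway 14 and 14. For 12 genes of V(D)J recombination and end joining it was 11 and 11. All 15 genes that respond to pre-B receptor signals had promoter peaks in both. At Egr3 the strongest peak that reached the promoter window had a −log10 q of 365 in Rescue pre-proB and 52.0 in Erg KO. It was 337 in Rescue proB, and 56.8 to 79.6 in the 3 WT libraries and Rescue preB. Whether a wider peak reached into the window from outside was not tested. Of the peaks nearest to these 15 genes, 16 of 129 Rescue peaks (12.4%) and 2 of 115 Erg KO peaks (1.74%) were unshared, against 9.81% and 6.57% of all peaks. Cxcr4, the receptor that holds cells in the marrow, had 5 of the 16, and the immediate early genes Egr1 and Nr4a1 had 2 each. The median centred log2 ratio of their shared pairs was 0.05, and no pair differed over 2 times.

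Promoters of markers of other cells were close in number. Promoter peaks were found in Erg KO and Rescue pre-proB for 8 and 8 of 10 T-cell genes, 7 and 7 of 10 genes of NK and innate lymphoid cells, 6 and 7 of 10 myeloid genes, 9 and 9 of 10 stem and progenitor genes, and 5 and 5 of 10 erythroid genes. The myeloid difference was Mpo, the peroxidase of granules, where a peak of 18 fragments was found in Rescue. Across all peaks 9.81% of Rescue and 6.57% of Erg KO peaks were unshared, and the counts that follow are small. Of the Rescue peaks nearest to myeloid genes 5 of 29 (17.2%) were unshared, and of the Erg KO peaks 1 of 24 (4.17%). For T-cell genes it was 5 of 35 (14.3%) and 0 of 32, for NK and innate lymphoid genes 3 of 38 (7.89%) and 1 of 35 (2.86%), and for erythroid genes 3 of 28 (10.7%) and 1 of 26 (3.85%). For stem and progenitor genes it was 6 of 66 (9.09%) and 5 of 65 (7.69%), and for plasmacytoid dendritic genes 12 of 129 (9.30%) and 15 of 132 (11.4%). For the B-cell marker genes it was 2 of 30 (6.67%) and 2 of 29 (6.90%). In a bulk library fewer cells of a type and less open chromatin per cell cannot be told apart.

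At the 202 and 143 coding promoters with a peak in 1 list, 180 and 133 had an unshared peak as their strongest. The others were at edges, where a shared peak reached into the window in 1 library alone, and these included the strongest. Klrb1a, which encodes an NK-cell receptor, led for Rescue with 477 fragments, followed by Smug1 (a DNA repair glycosylase) with 241, Fcamr (a receptor for IgA and IgM) with 230, Creb3l4 with 158, Gm49369, Gm30191, Dlx1 and Gm10282. For Erg KO it was Hist1h1d, a linker histone, with 259, then Tnnc1 with 108, Tmem253, Tmem171 and Bglap3, all of them shared peaks. Gm14443 had an unshared peak of 53 fragments, and Ermard and Tcte3 shared 1 unshared peak of 41.

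Where peaks of the 2 lists overlapped 1 to 1, their height was close to equal. Left out were 4947 Rescue and 5520 Erg KO peaks in 1 to many overlaps, those over the Igh J segments among them. There were 90339 pairs in which 1 peak overlapped exactly 1 peak of the other list. The deposited fold was 1.07 times higher in Rescue at the median, and after centring on that median the log2 ratio had an SD of 0.27. The Rescue fold was over 2 times higher in 57 pairs (0.0631%) and the Erg KO fold in 76 (0.0841%). Without centring these were 121 and 28. With a −log10 q of 10 or more in both, 18 and 15 of 68218 pairs differed that much. For Rescue pre-proB and WT pre-proB it was 59 and 141 of 65110 such pairs, for Erg KO and WT pre-proB 44 and 93 of 64305, and for Rescue pre-proB and Rescue proB 7560 and 4739 of 45533.

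**Figure D5:**
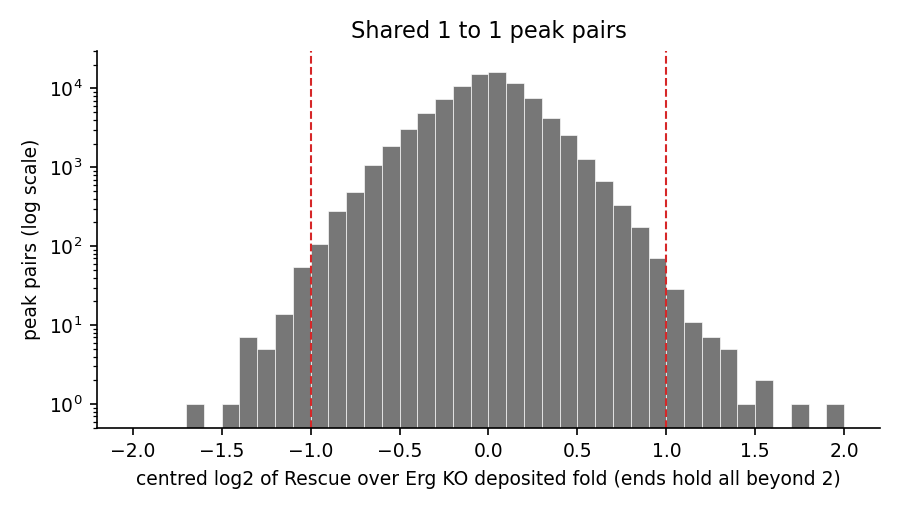
Histogram of the log2 ratio of Rescue over Erg KO deposited fold in 90339 shared pairs, centred on the median. The y axis counts pairs on a log scale, each bar spans 0.1, and dashed lines mark a 2-fold difference. The left side is heavier, with 1066 pairs from −0.7 to −0.6 and 676 from 0.6 to 0.7, and 57 pairs lie beyond the right line and 76 beyond the left.

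Ratios were ranked among pairs with a −log10 q of 10 or more in both libraries, with chromosome Y apart. The largest ratio was at chr6:8495053-8496067, 5862 bp from Gm26075, with 208 fragments in Rescue and 37 in Erg KO. Its centred log2 ratio was 2.33 with a counting error of 0.26. The other 5 libraries had 130 to 223 fragments there, so Erg KO stood apart and not Rescue. In intron 10 of Ica1, on the same chromosome, Rescue had 158 fragments, Erg KO 47 and WT pre-proB 114, a centred log2 ratio of 1.59. The Erg KO-only peak described above lay in intron 12 of the same gene, so Ica1 differed in both directions. The second ratio was 9231 bp from Itprid2, with 186 fragments in Rescue, 49 in Erg KO and 32 in WT pre-proB, and it was the one place among the leading 3 where Rescue stood apart. Itpk1, an inositol kinase, had 143 fragments in an intron 1 peak in Rescue and 50 in Erg KO. Gm19898 (in Foxn3) had 119 and 42, and Gm13710 245 and 103. On chromosome Y, Gm21860 had 171 fragments in Rescue and 55 in Erg KO, a centred log2 ratio of 1.49. In Gm47283, at chrY:90800329-90801007, it was 132 and 45, a ratio of 1.40. The later Rescue libraries had folds of 18.2 to 21.4 at both places. Among WT libraries only WT proB had a peak, at the Gm47283 place, with a fold of 4.80. Why these places differed was not tested.

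In the other direction Zfp972 led, with 88 fragments in Rescue and 208 in Erg KO, a centred log2 ratio of −1.36 with a counting error of 0.18. The WT libraries had 199 to 224 there and the later Rescue libraries 112 and 89. All 3 Rescue libraries were thus below all 4 others. Zfp972 is, like Gm14443, a zinc finger gene of distal chromosome 2 with close relatives nearby, and its reads are uncertain in the same way. The next were near Pi4k2b (34 and 72 fragments), in Ehd4 (32 and 65), in Arhgap32 near Gm47536 (45 and 89) and near Anapc4 (37 and 73). Those near Gm37827, Gm22029 and Tshr, the receptor for thyrotropin, followed, each with a log2 ratio of −1.08.

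Short motifs were searched in the 200 bp around each summit, on both strands, as a description of sequence and not of binding. EBF (TCCCNNGGG) was in 2.76% of Rescue-only peaks (2.46 to 3.09%) and 2.85% of Erg KO-only peaks (2.48 to 3.27%), against 3.07% and 3.11% of shared peaks. The ETS letters CCGGAAGT were in 0.32% and 0.36%, against 1.14% and 1.11%. They are in 3.89% of promoter windows of 300 bp, and promoters were fewer among unshared peaks. Outside promoters they were in 0.29% and 0.31% of unshared peaks, against 0.40% and 0.38% of shared ones. In shared peaks of the same strength they were in 0.23% (0.15 to 0.35%) for Rescue and 0.27% (0.18 to 0.40%) for Erg KO. These are below the unshared shares, so the direction depended on the background. EBF was in 2.74% and 2.77% of shared peaks of the same strength. E-box (CAGCTG) was in 15.6% and 16.9%, against 17.3% and 16.4% of shared peaks of the same strength. AP-1 (TGANTCA) was in 7.22% of Rescue-only and 6.23% of Erg KO-only peaks, against 6.82% and 6.47% of shared peaks of the same strength. IRF (GAAANNGAA) was in 11.6% and 9.52%, against 9.90% and 10.2%, and CTCF (AGGGGGC) in 4.49% and 5.29%, against 5.56% and 5.02%. These letters are in 7.81% (AP-1), 8.56% (IRF), 10.6% (CTCF), 16.3% (E-box) and 6.56% (EBF) of promoter windows. The EGR letters (GTGGGCG), of factors induced by receptor signals, were in 155 of 10363 Rescue-only and 88 of 6746 Erg KO-only peaks (1.30%). They were in 2.93% of shared peaks of both lists, in 1.57% of those of the same strength, and in 7.97% of promoter windows.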

How the data were processed

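Nuclei of sorted bone marrow cells were profiled by ATAC-seq, 1 library per group. The label protocol names Tn5, whereas the published methods name sonication. The authors aligned paired reads to mm10 with Bowtie2 and called peaks per library with MACS2. The submitters' processing notes also name CASAVA 1.8.2 and Picard, and no version was found for the others. The deposited narrowPeak lists hold, for each peak, a score (the −log10 q times 10, without decimals), a fold (a ratio of pileup to background, each plus 1), the −log10 p-value and −log10 q-value, and the summit offset. Read counts and depth were not used here. The fold values fell within 0.02 of whole steps, which gave fragments at the summit. Lists of different libraries were not normalized to each other.

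Peaks were compared in Python 3.11.15 (numpy 2.4.6, pandas 2.3.3, scipy 1.17.1), with 1 bp as the minimum overlap, and drawn with matplotlib 3.10.9. Genes came from GENCODE M21 on GRCm38, and a promoter was 1000 bp on either side of a start site. Scripts were tested on simulated data. With 1 library per group no test was run. Named by rule were, per direction, the 12 strongest autosomal unshared peaks, the 8 genes nearest to most unshared peaks, the 8 strongest promoters with a peak in 1 list, the 8 largest fold ratios, list genes with a promoter peak in 1 list, Erg and the antigen receptor loci, and the 5 strongest peaks of 2 patterns over the 7 libraries. The fold ratios were ranked among pairs with a −log10 q of 10 or more in both libraries, with chromosome Y apart. The members, gene lists and rules were chosen with earlier results of these data known. Alternatives were equal list lengths, a −log10 q of 10, a reciprocal overlap of 50%, other promoter and motif windows, other gene sets and counts, no centring, and the Rescue library by source name.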

Additional observations from a re-analysis of the deposited data

How the results depend on the processing

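Of 276 values recomputed under an alternative, 168 stayed within the set margin and 108 moved. The order of the directions turned in some: by source name Erg KO had more unshared peaks, in all and at promoters, at equal lengths it had more at promoters (864 against 743), and without centring or at a −log10 q of 10 Rescue had more pairs past 2 times. The cause was not tested. The unshared counts depended most on strength. Asked only of peaks at a −log10 q of 10 or more, they were 754 (Rescue-only) and 254 (Erg KO-only). With both lists held to that level, 3463 Erg KO peaks were unshared, and with a reciprocal overlap of 50% 11116 were. With the Rescue library by source name the counts were 22716 and 40887.

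The share of Rescue-only peaks in WT pre-proB was 27.1% at equal lengths, 77.1% with both lists at 10, 39.4% with reciprocal overlap, 48.7% for peaks at 10 and 12.8% by source name. In WT proB it was 40.9, 36.3, 26.8 and 67.1% under the last 4. For Erg KO-only peaks it was 27.4, 77.8, 45.9, 53.9 and 74.5% in WT pre-proB and 30.6, 46.8, 40.4, 36.6 and 16.6% in WT proB, in the same order. Rescue-only promoter peaks were 1941 with reciprocal overlap, 48 at 10, 2031 by source name and 1981 with a window of 2500 bp. Erg KO-only promoter peaks were 353 with both lists at 10, and 1792, 23, 3075 and 1470 in that order. Genes with several Rescue-only peaks were 967 with both lists at 10 and 438 at 3 or more peaks. For Erg KO-only they were 258 and 190, and 1273 when only coding genes and receptor segments were used. EBF letters were in 5.11 and 5.31% with 200 bp on either side. The Rescue J coverage was 272 bp at equal lengths and 0 with both lists at 10. The Erg KO peak there passes that level through a summit outside the J span. Pairs past 2 times were 121 and 28 without centring, and 18 and 15 at 10.

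No paired analysis was possible because each group had 1 library and no result came from a test. Without read counts, a missing peak cannot be told from a place just under the caller's limit.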
